A study of Cyprinus carpio with 18 samples.

Results

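Predicted microRNAs are short RNAs of the common carp (Cyprinus carpio) that the deposited files know only by their sequence. The ones described here were chosen by where they are listed: an id of 19 to 23 bases, present in all 3 larva libraries and in none of the 3 hatching libraries. This rule found 9 of the 2452 predicted microRNAs of that length, among 2888 microRNAs in all. The choice rests on the hatching and larva counts themselves, so those counts are given as a description, with no test. They are called Lv1 to Lv9, in order of their mean level in the larva.

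Small RNA came from whole wild-type embryos and larvae, spawned naturally, of a farmed carp strain named FFRC No.2. Total RNA was pooled in equal amounts within a stage before the libraries were made. There were 6 stages with 3 libraries each. Cleavage was sampled 2 h after fertilization, blastocyst at 6 h, gastrulation at 12 h, organ formation at 20 h and hatching at 64 h, and the larva 1 day post hatching. Total counts were 4964459 to 6694561 per hatching library and 5642188 to 8427601 per larva library, against 60779 to 438398 at the 4 earlier stages. As a check of the tissue, microRNAs known from muscle (miR-206), brain (miR-9-5p) and liver (miR-122) were all present in every hatching and larva library, with lowest levels of 38046, 34565 and 366 CPM (counts scaled to a common library total). Another brain microRNA, miR-124a, was low, at 4.18 to 8.86 CPM.

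A microRNA is cut from a hairpin precursor and loaded into an Argonaute protein, where bases 2 to 8, the seed, do most of the pairing with target messenger RNAs. The cut is not exact: the same precursor can give products that start or end some bases apart. A shifted 5′ end changes the seed, while a shifted 3′ end leaves it as it is. Such products are here called end variants, and were defined as ids that agree at every overlapping base over at least 16 bases. Only predicted microRNAs were searched, so the sums below leave out any reads listed under named microRNAs.

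The 9 sequences are shown because the rest of the results turns on their ends and seeds; the seed is in capitals.
Lv1: aATGGAAGtcagtgggaactga
Lv2: tACATTCAttgatgtcgttgggt
Lv3: aTGGCACTggtagaattcactg
Lv4: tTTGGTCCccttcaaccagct
Lv5: tGAGGTAGtagattgtatagttg
Lv6: tCCTATTTctgccctgcaactcc
Lv7: tGGAAGTCaatagggaccaga
Lv8: aAACCCAGttcaagacgctt
Lv9: tTTCCTGAacgcatcatagct
All 9 seeds differed. The longest run of bases shared by any pair was 9, between Lv1 and Lv7.

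In composition the 9 sequences stood as follows. T, the usual first base of animal microRNAs (U in the RNA), opened 6 of them, a share of 66.7%, and A opened the other 3. Among all predicted microRNAs of this length, T opened 48.1% and A 26.3%. The median GC content was 45.5% in the members, and it was 45.5% over all 2452 too. Lengths of 21 and 23 bases had 3 members each, 22 bases had 2 and 20 bases had 1. With 9 sequences these shares are a description only.

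The end variants of these sequences bear on the label "gained". Of the 9, 6 had an end variant somewhere in the series, and 4 of them, Lv2, Lv3, Lv5 and Lv6, had an end variant that was listed at hatching and in no larva library. An end variant listed at hatching and in no larva library was found for 44.4% of the members. The share was 11.8% over all 2452 predicted microRNAs of this length, and 4.26% over the 258 listed in all 6 hatching and larva libraries. These shares are not like for like, since the rule bars the members at hatching while the 258 were listed in every hatching library. Where a hatching or larva library listed any end of a pair, it listed both in 9.16% of cases. Nothing is therefore read from the contrast. In reverse, 17 were listed in every hatching library and in no larva library. Of these, 2 had an end variant listed in the larva and in no hatching library. For Lv2, Lv3, Lv5 and Lv6, RNA with the same core was listed in at least 1 hatching library under an id with other ends. Summed over all predicted ends, Lv3 and Lv6 overlapped between the stages, while Lv2 and Lv5 were higher in every larva library than in any hatching library. These sums hold the members' own counts, which the rule required in the larva and barred at hatching. The share of such groups over all predicted microRNAs is not given, so nothing is read from the number that did not overlap. The other 5, Lv1, Lv4, Lv7, Lv8 and Lv9, had no end variant at hatching among the predicted microRNAs. Named microRNAs were not searched, so whether the same core was listed at hatching under a name is not known.

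**Figure D1:**
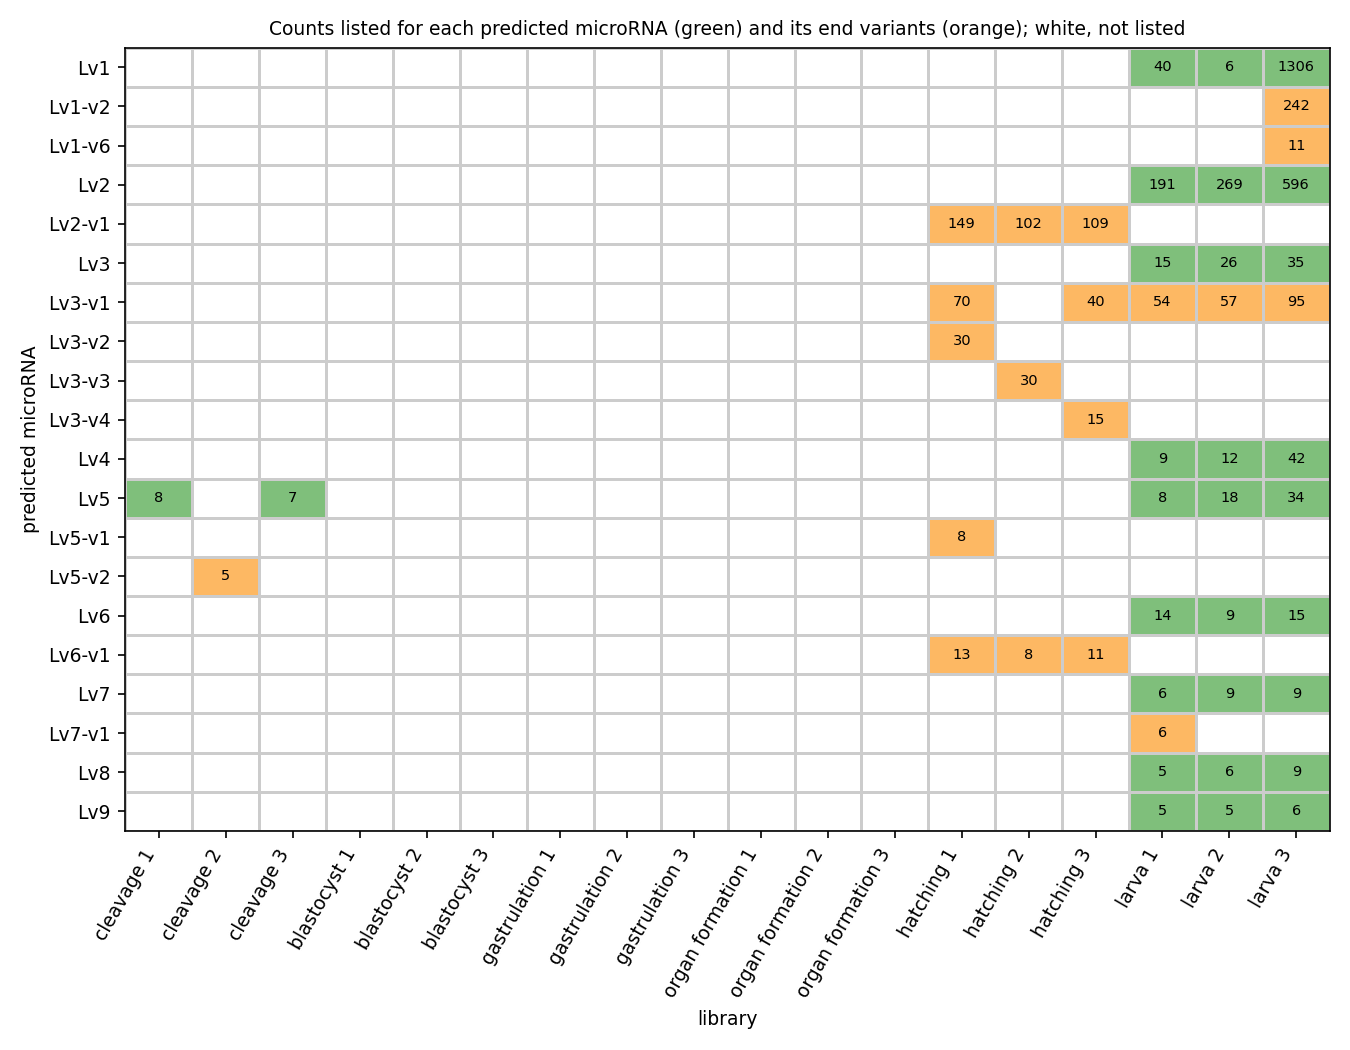
Counts listed per library (columns, 18 libraries by stage) for each of the 9 predicted microRNAs (green) and their end variants (orange); white cells are not listed. All green cells stand under larva, where the rule required them, except those of Lv5 in cleavage 1 and 3. The rule barred the hatching libraries and set no condition on the 12 earlier ones. The Lv2 and Lv6 rows are white under hatching, where the variant in the row directly below each is listed.

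These are all end variants of the 4, shown because all but Lv5-v2, which was listed in cleavage 2 alone, hold hatching counts; capitals mark bases that the member lacks.
Lv2-v1: tacattcattgatgtcgttgggtT
Lv3-v1: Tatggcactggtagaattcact
Lv3-v2: atggcactggtagaattcactgTG
Lv3-v3: Tatggcactggtagaattcactg
Lv3-v4: TatggcactggtagaattcactgT
Lv5-v1: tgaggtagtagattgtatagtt
Lv5-v2: tgaggtagtagattgtatagttgT
Lv6-v1: tcctatttctgccctgcaactccC
The variants of Lv2, Lv5 and Lv6 differ from them only at the 3′ end and so keep the seed. Lv5-v1 ends 1 base earlier than Lv5. For Lv3, the 3 variants that begin with an added T carry the seed ATGGCAC in place of TGGCACT, and Lv3-v1 also ends 1 base earlier.

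Lv2 and its variant changed places completely. Lv2 had 191, 269 and 596 counts in larva 1, 2 and 3 and was unlisted at hatching. Lv2-v1, which is 1 base longer, had 149, 102 and 109 counts in hatching 1, 2 and 3 and was unlisted in the larva. No library listed both. Summed over the pair, the level was 21.5 ± 1.09 CPM at hatching and 49.2 ± 19.2 CPM in the larva (SD, n = 3 each), a ratio of 2.29. The lowest larva library stood at 33.9 CPM and the highest hatching library at 22.3 CPM, so the sums of the pair did not overlap. The larva sums are the counts of Lv2 itself, which the rule required there. Larva 3, at 70.7 CPM, was the highest. The seed of Lv2 was shared by 4 other predicted microRNAs, Lv2-v1 included. All 4 were listed in at least 1 hatching library, and 3 in at least 1 larva library.

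Lv6 showed the same exchange at a low level. It had 14, 9 and 15 counts in the larva libraries, and Lv6-v1, again longer by 1 base at the 3′ end, had 13, 8 and 11 counts in the hatching libraries. The summed level was 1.91 ± 0.315 CPM at hatching and 1.90 ± 0.531 CPM in the larva (SD, n = 3 each). The ranges of the stages overlapped, and the means lay closer than the spread within either stage. Of the 658 pairs of end variants among all predicted microRNAs, 2 were split in this way, the pairs of Lv2 and of Lv6. In a split pair each id was listed in all 3 libraries of a single stage. The rule asks for the same listing, so the larva id of a split pair is a member if its length fits. That both pairs hold a member therefore follows from the rule, and nothing is read from it.

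Lv3 belonged to a group in which each hatching library listed other ends. Lv3 itself had 15, 26 and 35 counts in the larva libraries. Lv3-v1, the most abundant predicted form, was listed in both stages. It had 70 counts in hatching 1, 40 in hatching 3 and 54, 57 and 95 in larva 1, 2 and 3. The remaining hatching counts stood under a different variant in each library: 30 counts of Lv3-v2 in hatching 1, 30 of Lv3-v3 in hatching 2 and 15 of Lv3-v4 in hatching 3. All predicted forms together made 10.7 ± 4.51 CPM at hatching and 13.6 CPM in the larva, where the libraries had 12.2, 13.3 and 15.4 CPM. Hatching 1, at 14.9 CPM, was above the lowest larva library, so these sums of predicted forms overlapped between the stages. Reads listed under named microRNAs are not in them, so the full level of RNA with this core is not known at either stage.

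Lv5 carries the seed GAGGTAG, which is known from the let-7 family, timers of late development in animals; the files give Lv5 no name. It had 8, 18 and 34 counts in the larva libraries, or 1.42, 2.88 and 4.03 CPM. At hatching only Lv5-v1 was listed, with 8 counts in hatching 1, or 1.19 CPM, and hatching 2 and 3 listed neither form. Summed over its predicted forms the level was 0.398 ± 0.690 CPM at hatching and 2.78 ± 1.31 CPM in the larva (SD, n = 3 each). The stages did not overlap, but the lowest larva library was above the highest hatching library by 0.223 CPM only, and 5 counts, the least that is listed, stood for 0.747 to 1.01 CPM at hatching. Lv5 was also the only one of the 9 listed before hatching, with 8 counts in cleavage 1 and 7 in cleavage 3, and in cleavage 2 the longer Lv5-v2 had 5 counts. These are 58.9, 68.8 and 53.0 CPM. In the cleavage libraries 5 counts stood for 36.8 to 53.0 CPM, so any id listed there stands above the larval levels of Lv5. The levels of the 2 stages can therefore not be compared. From blastocyst to organ formation no predicted form was listed, in libraries where the listing minimum of 5 counts stood for 11.4 to 82.3 CPM. A level like that of the larva could not have been listed there.

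Lv5 shared its seed with 6 other predicted microRNAs, of which 2 were listed in all 3 larva libraries. The most abundant of them was this one, with the seed in capitals, which serves as a measure of how low Lv5 stood.
Same seed as Lv5: tGAGGTAGttggttgtatggtt
It had 1809, 1094 and 1251 counts in the hatching libraries and 4422, 5996 and 12222 in the larva libraries. Lv5 and this RNA both had their highest larval count in larva 3, the deepest library.

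**Figure D2:**
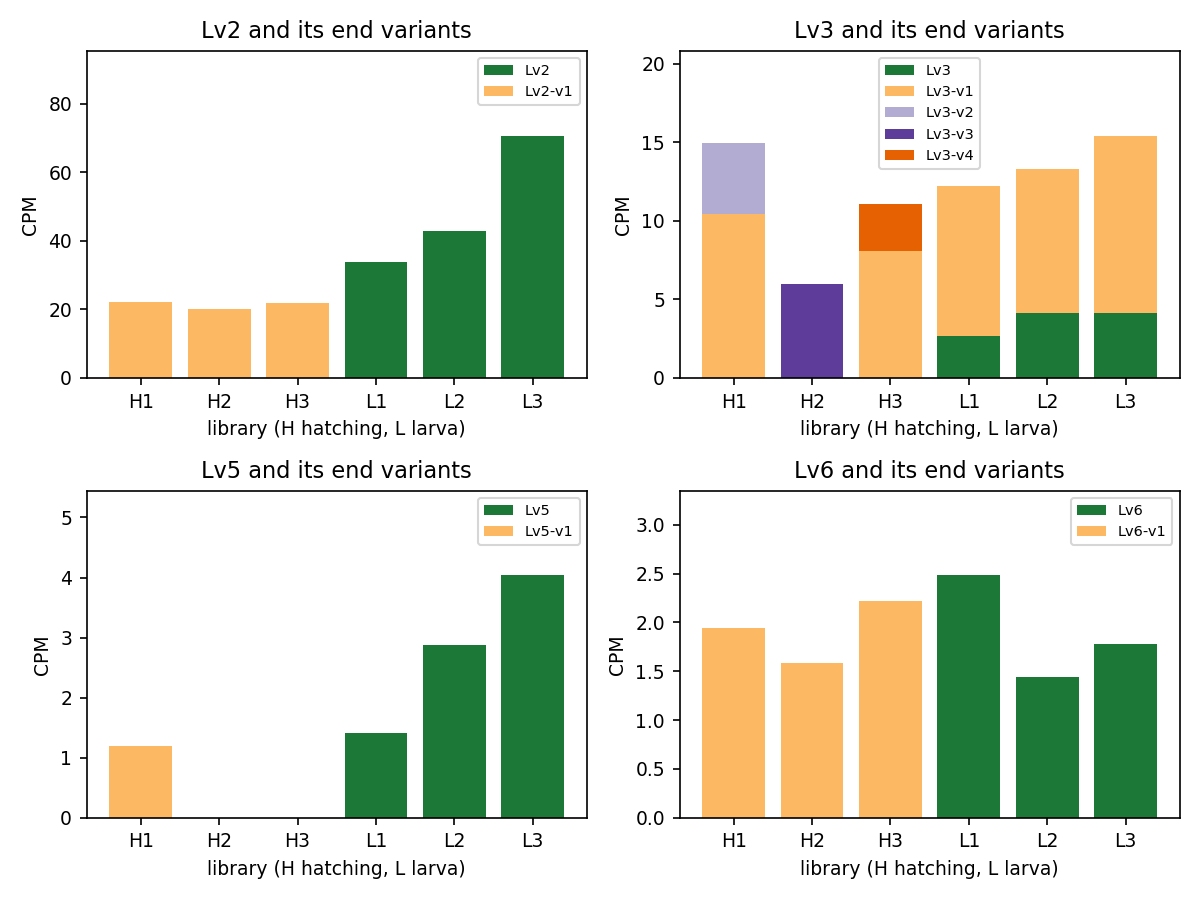
Levels in CPM (bars, stacked by id, axis from 0) of Lv2, Lv3, Lv5 and Lv6 (green) and their end variants (other colours) in the 3 hatching (H) and 3 larva (L) libraries. For Lv6 the summed bars are alike in both stages, at 1.91 and 1.90 CPM on average; for Lv2 all larva bars stand above all hatching bars.

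Listing of a single end per library was common. Over the 6 hatching and larva libraries, the 658 pairs of end variants gave 207 cases in which both ids were listed and 2052 in which only 1 was, so both were listed in 9.16% of the cases. Lv1, Lv3 and Lv7 each had a variant that was listed together with them, Lv3-v1 in all 3 larva libraries and the others in 1 library each. Whether an unlisted id had no reads in a library, or had reads that were counted under another end, was not tested, so no fold change against hatching is given for any of the 9.

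Lv1, the most abundant by its mean, owed that place to a single library. It had 40 counts in larva 1, 6 in larva 2 and 1306 in larva 3, or 7.09, 0.960 and 155 CPM. The mean of 54.3 CPM carried an SD of 87.2 (n = 3), and the highest library was 161 times the lowest. The end variants Lv1-v2 and Lv1-v6 were listed in larva 3 alone, with 242 and 11 counts. In larva 2 it stood near the level of Lv8, the second lowest of the 9 by mean.

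Lv1 lies in a crowd of similar sequences. Its seed, ATGGAAG, was shared by 35 other predicted microRNAs, more than for any other of the 9; 28 of them were listed at hatching and 22 in the larva. At least 16 bases in a row were shared with 8 predicted microRNAs. The following are all those listed at hatching; capitals mark the bases outside the shared run.
Lv1-v1: tggaagtcagtgggaacCAAACT
Lv1-v3: AATGAaagtcagtgggaactga
Lv1-v4: AATGACagtcagtgggaactga
Lv1-v5: TACAACggaagtcagtgggaac
Lv1-v7: aatggaagtcagtgggaacCA
Lv1-v8: atggaagtcagtgggaacCACC
Lv1-v7 carries the seed of Lv1 and differs only in its last bases; it had 9 counts in hatching 1 and was listed nowhere else. Lv1-v8, which starts 1 base later, had 6 counts in hatching 2 alone. Because their last bases differ, neither counts as an end variant here. Lv1-v5, whose first bases and seed differ, had 14 and 6 counts in hatching 1 and 2 and 11 and 13 in larva 1 and 2. Counted from the 5′ end of Lv1, Lv1-v3 differs by G5A and Lv1-v4 by G5A and A6C, so both have other seeds. Lv1-v3 had 28 and 16 counts in hatching 1 and 2, none listed in hatching 3, and 13, 12 and 63 in the larva libraries, with larva 3 again the highest. Lv1-v4 went the other way in that library, with 20, 13 and 22 counts at hatching and 12, 15 and 6 in the larva.

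Lv1-v1 was the only relative with a shared run of at least 16 bases that passed the filter on low counts of the fit across all microRNAs. Its counts were 240, 193 and 158 at hatching and 100, 111 and 65 in the larva, and the stages did not overlap. The share of all tested microRNAs without overlap is not given, so nothing is read from this. The fitted larva-minus-hatching difference was −1.55 on the log2 scale (SE 1.37) and did not pass edgeR's quasi-likelihood test (adjusted p = 0.702 after Benjamini-Hochberg adjustment). The spread behind this SE was estimated over all 18 libraries, not over the hatching and larva libraries alone. With the 2 stages fitted alone the difference was −1.26 (SE 0.379), and it did not pass either (adjusted p = 0.114, edgeR). All 3 larva libraries were lower. In the larva-against-hatching comparison of the fit over 18 libraries, 1 of 328 microRNAs tested was called, 0.305%. There 46 had an unadjusted p under 0.05, and DESeq2 called 29. The edgeR call was a predicted microRNA with a lower fitted level in the larva (log2 difference −11.1), named here after its values were seen. Whether its reads in the larva were counted under another end was not tested.
Called, lower in larva: gtgtggagagccgtttgttac
 With the filter lowered to 5 counts in 3 libraries, 7 relatives were tested and none was called, beside 0.101% of 994 microRNAs, while 71 of these had an unadjusted p under 0.05. Lv2-v1 and Lv6-v1 were the 2 relatives with an unadjusted p under 0.05, and their adjusted p was 0.209 and 0.453 (edgeR). No library listed either together with its member, so these values are tied to the choice of the members.

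**Figure D3:**
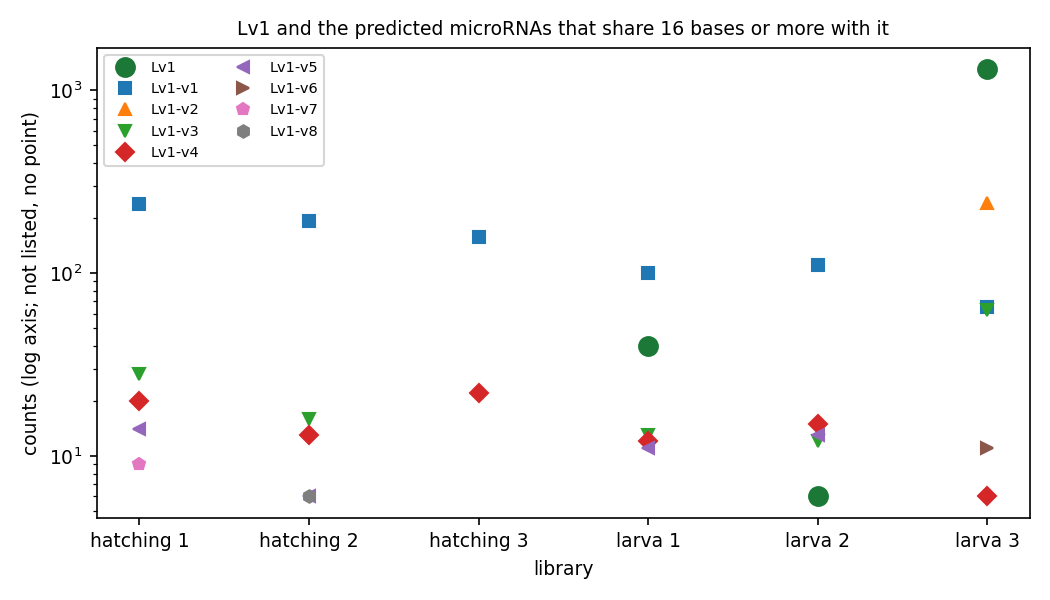
Counts (log axis) of Lv1 and the 8 predicted microRNAs that share at least 16 bases in a row with it, in each hatching and larva library; an id that is not listed has no point. Lv1 stands at 40, 6 and 1306 counts in the larva libraries, and Lv1-v1 is lower in every larva library than in every hatching library.

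Lv7 shares the stretch GGAAGTCA with Lv1, and was listed with 6, 9 and 9 counts. Its relative Lv7-v1, shifted by 3 bases toward the 5′ end, had 6 counts in larva 1 only. A predicted microRNA that pairs with bases 1 to 19 of Lv7 is shown because complementary products can come from opposite arms of a hairpin or from opposite strands, which sequence alone does not tell apart; capitals mark the complementary bases.
Complement of Lv7: tttTGGTCCCTATTGACTTCCA
It was listed in larva 3 alone, with 8 counts. Lv1 had 2 such partners, the longer-paired of which, complementary to bases 2 to 19 of Lv1, was listed in all 6 libraries, with 9, 11 and 11 counts at hatching and 6, 18 and 12 in the larva. Complementary runs of at least 16 bases were thus found for 2 of the 9, and for 13.6% of all 2452.

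Lv4, Lv8 and Lv9 had no relative among the predicted microRNAs of the series with a shared run of 16 bases. Lv4 had 9, 12 and 42 counts, or 1.60, 1.92 and 4.98 CPM, again with larva 3 the highest. Lv8 had 5, 6 and 9 counts, and Lv9 had 5, 5 and 6. These last lie just inside the rule, since predicted microRNAs appear in the files only from 5 counts up. At hatching, 5 counts stood for 0.747 to 1.01 CPM, and Lv8 and Lv9 had larval means of 0.971 and 0.799 CPM. Among the 346 predicted microRNAs of this length listed in all 3 larva libraries, Lv8 ranked 345 and Lv9 346 by mean level. Scaled to the depth of the shallowest hatching library, Lv1, Lv8 and Lv9 would each fall under 5 counts in at least 1 larva library, and 6 of the 9 would remain.

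**Figure D4:**
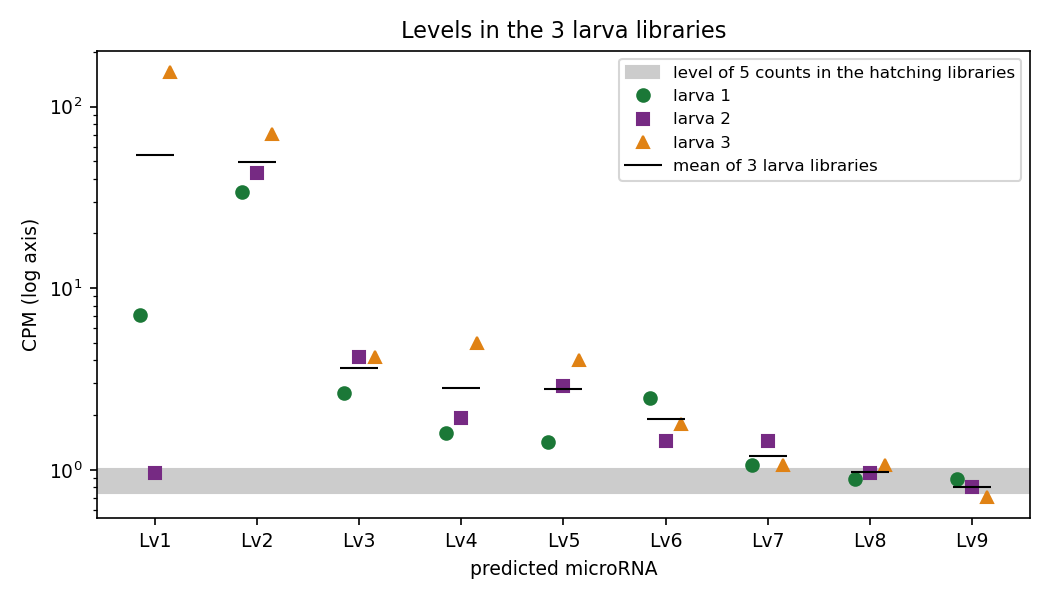
Levels in CPM (log axis) of the 9 predicted microRNAs in larva 1, 2 and 3 (symbols), with the mean of the 3 libraries (bars); the grey band spans the level that 5 counts make in the hatching libraries, 0.747 to 1.01 CPM. Lv8, Lv9 and the lowest library of Lv1 reach into the band.

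Just outside the rule stood 27 predicted microRNAs listed in all 3 larva libraries and in 1 hatching library. The 4 with the highest larval levels are shown with their seeds in capitals, for comparison with the 9.
Nx1: aCCTGGCAtacaatgtagattt
Nx2: tGAGGTAGtaggttgtatggt
Nx3: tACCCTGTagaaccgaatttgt
Nx4: gGTTTTTCagtgggaacactct
Nx1 had 3170 counts in hatching 3 and 2710, 2999 and 4682 in the larva libraries. In hatching 1, where it was unlisted, an end variant of 26 bases had 4692 counts. In hatching 2 neither Nx1 nor any of its 3 end variants was listed. Nx3 had 296 counts in hatching 2 and 264, 317 and 364 in the larva libraries. A variant of 22 bases, starting 1 base later, had 456 and 254 counts in hatching 1 and 3, where Nx3 was unlisted. Nx2, with 131 counts in hatching 2, had a variant of 22 bases with 225 counts in hatching 1. In hatching 3 neither Nx2 nor that variant was listed. Nx4, with 85 counts in hatching 2, had no end variant. Over all 27, 12 had an end variant in a hatching library that did not list them. The share in a comparable set is not given, so nothing is read from this number.

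In the larva the 9 together made 51.9, 57.6 and 243 CPM in larva 1, 2 and 3, which was 0.0552%, 0.0623% and 0.295% of the counts of all predicted microRNAs. Lv1 and Lv2 held 78.8%, 76.4% and 92.7% of these counts. Larva 3 was the highest of the 3 libraries in CPM for 5 of the 9, and for 38.2% of the 346 predicted microRNAs listed in all 3 larva libraries. The spread between larva libraries, as a coefficient of variation, was 160% for Lv1 and 9.41% to 66.0% for the other 8. Its median of 28.0% over the 9 was near the 28.3% over all 346.

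The reverse of the rule, listed in all 3 hatching libraries and in no larva library, was met by 17 predicted microRNAs of the same length. Of these, 2 had an end variant listed in the larva. By the same rule, 318 predicted microRNAs appeared from organ formation to hatching and 6 were lost, at a step where depth rose from a lowest library of 60779 counts to one of 4964459. Depth and stage cannot be told apart at that step.

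Of the 9, only Lv2 passed the filter on low counts in the fit across all microRNAs, and it did so through the larva libraries that chose it. It was unlisted in all 12 libraries before hatching, so no fold change is given. By edgeR's quasi-likelihood test 0 of the 9 were called from cleavage to blastocyst, from blastocyst to gastrulation or from gastrulation to organ formation, where 7.62%, 7.01% and 6.1% of 328 microRNAs were called; with 1 member tested, which has no counts there, this says nothing of the others. Lv2 had an unadjusted p of 1 at each of these steps, by edgeR and by DESeq2. With the filter lowered to 5 counts in 3 libraries, Lv5 did not pass from cleavage to blastocyst (unadjusted p = 0.0231, adjusted p = 0.442, edgeR). In the larva against cleavage and the larva against organ formation Lv2 was called (adjusted p = 0.0131 and 0.0232, edgeR; higher in 3 of 3 larva libraries), beside 61% and 35.4% of all tested. Nothing is read from these calls, because the larva libraries chose Lv2. It was unlisted before hatching, so its levels there are not known.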

How the data were processed

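The 18 small RNA libraries were grouped by the stage given in the labels, and sequenced as 50 bp single-end reads per the labels' protocols. Raw read counts for each mature microRNA were deposited. FastQC and edgeR are named in notes on processing by the submitters. Which aligner, genome build and prediction program made the counts is not given in the sources used here. The smallest count of any predicted microRNA in the files is 5; an id missing from a library entered the fits as 0. The authors also deposited TPM values, with 0.01 in place of 0; these served to check that the members stood above that floor in the libraries whose counts list them.

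CPM here is counts over the library's total of listed counts. End variants, shared runs and seeds were found in Python 3.11.15 with pandas 2.3.3, and figures drawn with matplotlib 3.10.9. No reference sequences of named carp microRNAs were used here, so no member was matched to a name. Tests used edgeR 4.0.16 in R 4.3.3: filterByExpr by stage (count minimum 10), TMM factors, 1 mean per stage over 18 libraries, glmQLFit (robust) and glmQLFTest, and Benjamini-Hochberg adjustment at 0.05 over all microRNAs tested. SE was derived from the log2 difference and its F value. The procedure was tested on simulated data. Alternatives were DESeq2 1.42.0, RLE factors, library totals, other filters, each library left out, a replicate block, fits of 2 stages alone, and other settings of the rule.

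Every member was named; relatives named are those with a shared run of at least 16 bases, and those just outside the rule are the 4 with the highest larval mean among ids listed in 1 hatching library. The members and lists were chosen with earlier results of these data known. The labels do not say whether libraries of the same stage are separate spawnings or repeats of 1 RNA pool, so every SD and p-value covers library-to-library spread that may be technical alone. Counts are read counts without molecular identifiers.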

Additional observations from a re-analysis of the deposited data

How the results depend on the processing

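The number of members depended on the rule: 2 had at least 10 counts in each larva library. Leaving out any of the 6 hatching and larva libraries gave 14 to 37 (lowest without hatching 2, highest without larva 1). Each library left out drops a condition of the rule, so the number could not fall. Other lengths (10 with 18 to 24 bases, 6 with 20 to 22) and scaling to the shallowest hatching library (6) stayed within 1.5 times of 9. Added after seeing the data, scaling both stages gave 7, and summing end variants gave 9 groups, of which 5 hold a member. The reverse rule gave 20 to 56 with a library left out, in place of 17, and it too could not fall. No member had 10 counts before hatching (0 in place of 1). Shared runs of 14 or 18 bases left 6 members with a relative.

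Lv1-v1 kept its direction in all 25 alternatives, at −1.75 to −1.20 (adjusted p 0.114 to 1). With the stages fitted alone, 6 relatives were tested and 1 passed, Lv2-v1 (adjusted p = 0.0148, edgeR). Since no library listed both Lv2 and Lv2-v1, this call is tied to the choice of Lv2, and nothing is read from it. No library was left out of that fit. In the larva against cleavage, Lv2 was lost with no filter, DESeq2 and the replicate block (0 each). With the stages alone 2 members passed, Lv2 higher and Lv5 lower in the larva, beside 229 of 380 microRNAs tested. Nothing is read from these calls, because the larva libraries chose both members. For Lv5, 5 counts at cleavage stood for 36.8 to 53.0 CPM, above all its larval levels. Against organ formation 0 passed with library totals, no filter, 5 counts in 3 libraries, DESeq2 or the block, and 0 to 1 with a library left out (0 without organ formation 3).

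Over the whole table, calls from cleavage to blastocyst were 25, against 110 with library totals, 9 with 5 counts in 3 libraries, 49 with DESeq2, 10 with the stages alone and 10 to 37 with a library left out. From blastocyst to gastrulation they were 23, against 6 with no filter, 11 with 5 counts in 3 libraries, 43 with DESeq2, 13 with the replicate block, 11 with the stages alone and 14 to 24. From gastrulation to organ formation they were 20, against 47 with library totals, 4, 8, 63 and 32 with no filter, 5 counts in 3 libraries, DESeq2 and the stages alone, and 9 to 34. From hatching to larva 1 became 29 with DESeq2, 2 with the block, 49 with the stages alone and 1 to 5 (5 without blastocyst 1). Larva against cleavage gave 200 and 130 with no filter; larva against organ formation gave 116, with 40 and 71 with no filter and 5 counts in 3 libraries. The causes were not tested. Same-numbered libraries correlated at −0.248 to 0.361, over 0.1 in 6 of 45 pairs. Cleavage and hatching, which are not compared here, were over 0.1 in all 3 pairs; no stages compared here were, so the block was kept as an alternative.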

Other observations

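The 8 bases GGAAGTCA, chosen after Lv1 and Lv7 were seen to share them, stood in 91 of the 2452 predicted microRNAs of 19 to 23 bases, 3.71%, and the reverse complement TGACTTCC in 53, 2.16%. Among the 258 listed in all 6 hatching and larva libraries, 9 held GGAAGTCA and 3 held TGACTTCC. None of the 17 of the reverse rule held either.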
